A study of Danio rerio with 12 samples.

Results

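The genes described here are the matrix metalloproteases (MMPs), the ADAM, ADAMTS and ADAMTSL genes, the tissue inhibitors of metalloproteases (TIMPs) and *htra1a* in heart cells of the zebrafish enhancer trap line *sqet31Et*. They were chosen by symbol, as every gene whose symbol begins with mmp or timp and a number or with adam, plus *htra1a*, a secreted serine protease of the extracellular matrix that is no metalloprotease and was added by name. The rule took 70 of 27191 genes in the files. They were 14 MMPs other than the membrane-type ones, 10 membrane-type MMPs, 5 TIMPs, 14 ADAM proteases, 3 ADAMs without an active site, 7 ADAMTS proteoglycanases, 4 ADAMTS procollagen N-proteinases, 8 other ADAMTS genes, 4 ADAMTSL genes and *htra1a*. Of the 70 genes, 27 took their symbol from the study's tables and 43 from a gene name table. A symbol in capitals is a human-style name from those tables for which no single zebrafish gene could be told, as for *MMP14*, *ADAM17* or *TIMP4*, and an Ensembl ID follows where several genes share one name.

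All samples came from hearts dissected from *sqet31Et* embryos, pooled and dissociated, in which EGFP follows a trapped enhancer that is active in the atrioventricular canal (AVC). Per the study, EGFP is also low in some myocardial cells, and at 72 hpf it marks the bulbus arteriosus, the outflow vessel of the heart, so GFP+ cells of that stage can come from either site. Cells were sorted by fluorescence, with gates set on wild type hearts, into GFP+ cells and the GFP- cells of the rest of the heart, at 48 and 72 hours post-fertilization (hpf). Each of these 4 groups, GFP+ and GFP- at 48 hpf and GFP+ and GFP- at 72 hpf, was read as 3 full-length cDNA libraries, which makes 12 in all. The labels give no further allele or treatment for any group.

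MMPs are zinc proteases that cut collagens and other matrix proteins outside the cell, and the membrane-type MMPs do so from the cell surface, where they also turn pro-MMP2 into active enzyme. TIMPs bind and block MMPs and some ADAMs, and TIMP2 also takes part in the activation of MMP2. ADAM proteases shed growth factors and receptors such as Notch from the membrane, while ADAMTS proteases are secreted and cut proteoglycans, procollagens or von Willebrand factor, and ADAMTSL proteins share their matrix-binding modules without a protease. In the embryonic heart, matrix proteases remodel the cardiac jelly in which the valves form in the AVC. Roles below are those known for the mammalian namesakes.

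Library totals ran from 20530602 to 62359004 counts. Levels are given as CPM, the counts as a share of a library's TMM-scaled total, in the order of replicates 1, 2 and 3. Levels hold no correction for gene length and are not compared between genes. Where they are set against each other, those of GFP+ come first. Tests are quasi-likelihood tests in edgeR, padj is their p-value after Benjamini-Hochberg adjustment over 23222 genes, and a gene is called when padj is below 0.05. Standard errors (SE) belong to the log2FC beside them, and are its size divided by the square root of the F statistic of its test. Where a padj is followed by another, such as 0.084 without GFP- replicate 3 for *mmp2*, leaving out a library of the comparison lost the call, and the library with the highest padj is named. Calls that held in all such fits are listed further on. In replicate 1 of GFP- at 72 hpf, the 10 genes with the most counts held 21.0% of the total, against at most 8.47% in any other library. The summed level of 4 erythrocyte genes was 37433 CPM there and 3767 and 4311 CPM in the other 2 libraries of that group. That library also had the lowest level of its group for 52 of the 67 tested genes of this set and for 49.5% of all tested genes, so the counts of calls and the values of several genes are also given without it.

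Markers of several cell types differed between the fractions. The summed level of 8 cardiomyocyte genes was 2864 to 5440 CPM in GFP+ and 49.4 to 313 CPM in GFP- at 48 hpf, and 1433 to 2238 against 242 to 897 CPM at 72 hpf. All 8 were called higher in GFP+ at 48 hpf and 4 of them at 72 hpf. The summed level of 6 endothelial and endocardial genes overlapped between the fractions at both stages, although *tek* and *flt1* were called lower in GFP+ at 72 hpf. The 5 epicardium genes summed to 406 to 422 CPM in GFP+ and 139 to 267 CPM in GFP- at 48 hpf, and to 661 to 1088 against 289 to 441 CPM at 72 hpf, and 3 of the 5 were called higher in GFP+ at each stage. At 48 hpf the 9 liver genes summed to 439 to 1854 CPM in GFP+ and 8.59 to 41.7 CPM in GFP-, and the 6 epidermis genes to 1855 to 4482 against 64.6 to 165 CPM. At 72 hpf the liver genes overlapped between the fractions. The epidermis genes did not, with 1228 to 2001 CPM in GFP+ and 196 to 403 CPM in GFP- at 72 hpf, and 3 of the 6 were called higher in GFP+. The 9 cartilage and connective tissue genes summed to 3125 to 9437 CPM in GFP+ and 870 to 2997 CPM in GFP- at 48 hpf. Most of these sums came from *col1a1a*, which averaged 4602 against 1836 CPM and was not called (padj = 0.22). At 72 hpf they overlapped, with 3757 to 7682 against 1310 to 7462 CPM. Of these 9 genes, 4 were called higher in GFP+ at 48 hpf and 2 at 72 hpf, and none was called lower. The 4 erythrocyte genes summed to 3.37 to 24.7 CPM in GFP+ and 736 to 1485 CPM in GFP- at 48 hpf. At 72 hpf they summed to 5.30 to 21.9 against 3767 to 37433 CPM, and all 4 were called lower in GFP+ at both stages. Of 4 skeletal muscle genes, 3 were called higher in GFP+ at 48 hpf, and 1 higher and 2 lower at 72 hpf. The part of all these markers in the results below was not tested. Here as in all bulk samples, fewer cells of a type and less RNA per cell cannot be told apart.

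Of the 70 genes, 67 passed the filter on low counts and were tested. The other 3, *mmp20a*, *mmp25a* and *TIMP4* (ENSDARG00000102617), had at most 13 counts in any library. At 48 hpf, 26 of the 67 genes (38.8%) were higher in GFP+ cells, where 14.6% of all tested genes were called higher, and 6 (8.96%) were lower, where 14.4% of all genes were. At 72 hpf, 15 genes (22.4%) were higher, against 6.22% of all genes, and 4 (5.97%) were lower, against 10.8%. The median log2FC over the 67 genes was 0.82 at 48 hpf and 0.56 at 72 hpf, beside 0.03 and -0.02 over all genes. Without replicate 1 of GFP- at 72 hpf, 14 genes were higher and 6 lower at 72 hpf, and the median fell to 0.20 beside 0.10 over all genes. In that fit *mmp24* (padj = 0.037) and *adam15* (padj = 0.028) were called lower at 72 hpf and *adamts9* lost its call, while the other 18 calls held. At 48 hpf the same fit gave 30 higher and 9 lower, with calls added for *adam19b*, *adamts1*, *adamts3* and *adamts10*, which were higher, and *mmp19*, *mmp20b* and *adam10b*, which were lower. For this and every later fit with a library left out or a setting changed, the numbers of calls are of this set alone. The share of all genes called in those fits is not given, so a change in such a number may not be particular to this set.

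**Figure D1:**
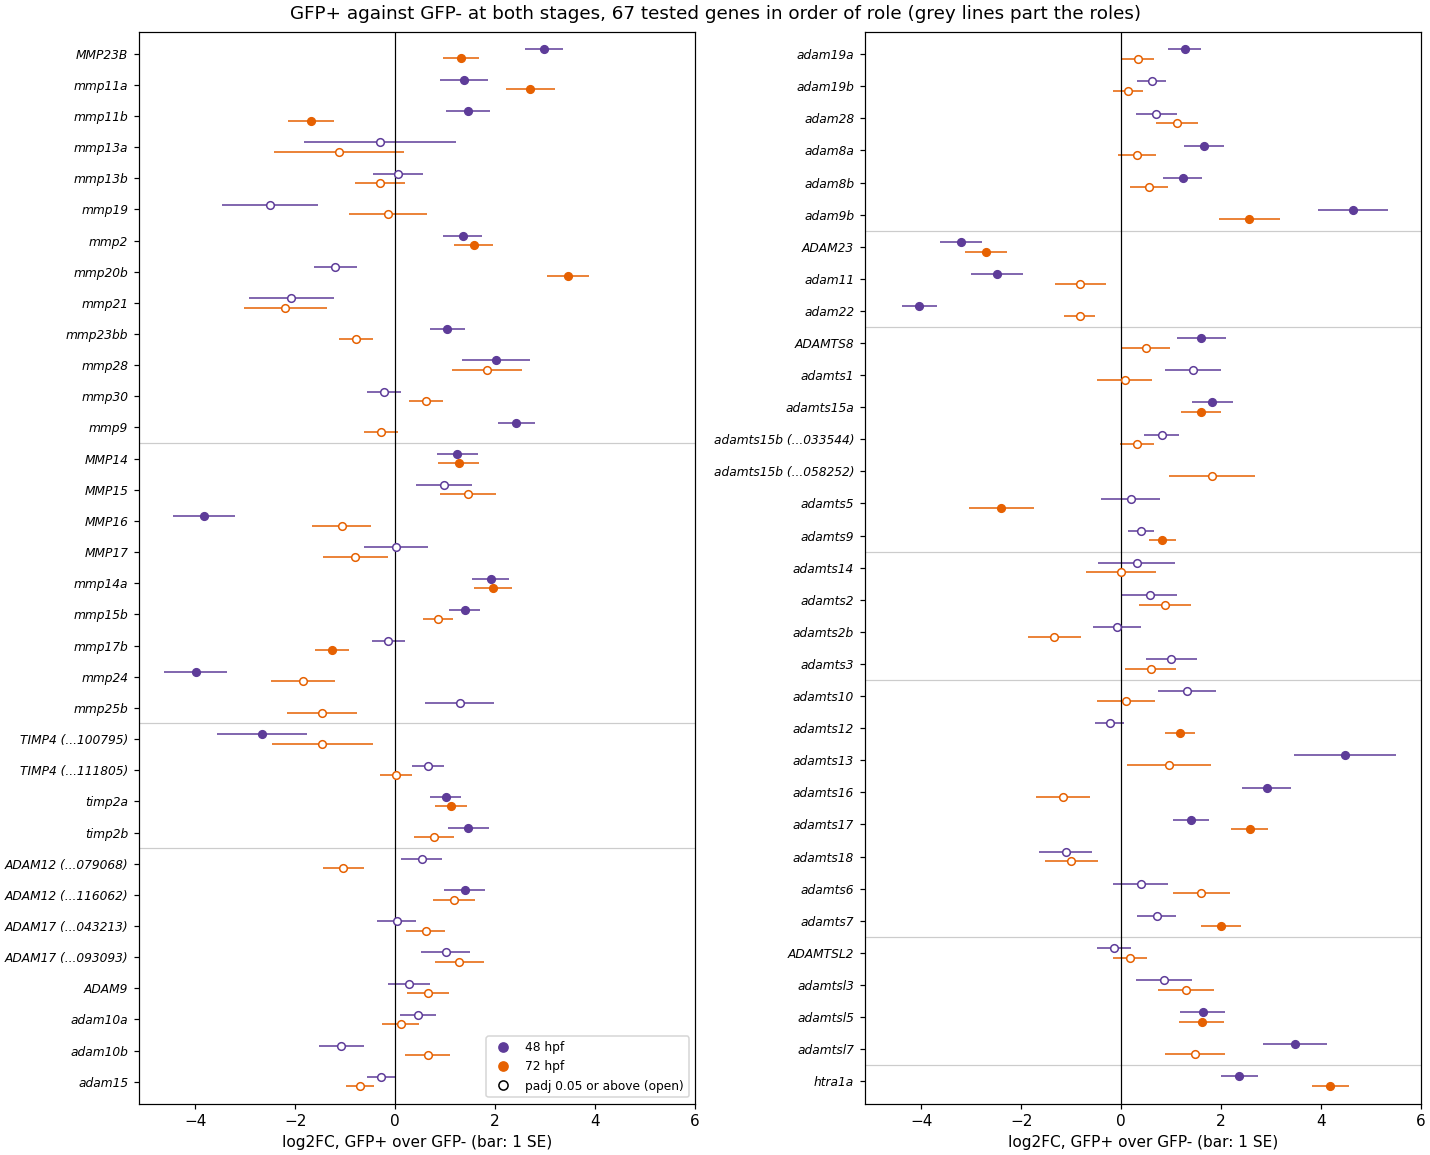
Log2FC of GFP+ over GFP- cells for the 67 tested genes at 48 hpf (purple) and 72 hpf (orange), with bars of 1 SE, filled where padj is below 0.05 and open otherwise, ordered by role. Filled points lie to the right of 0 for 25 genes at 48 hpf and 15 at 72 hpf. The 48 hpf value of *adamts15b* (ENSDARG00000058252), which had no counts in GFP- at that stage, is left out of the 26 that were called higher.

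In 11 genes GFP+ cells were higher at both stages. They were *mmp2*, *mmp11a*, *MMP23B*, *mmp14a*, *MMP14*, *timp2a*, *adam9b*, *adamts15a*, *adamts17*, *adamtsl5* and *htra1a*. *ADAM23* was lower at both, and *mmp11b* was higher at 48 hpf and lower at 72 hpf. At 48 hpf alone, 14 genes were called higher and 5 lower, and at 72 hpf alone 4 higher and 2 lower. A call at one stage alone does not show that the stages differ, and the test of that difference is given further on. The fraction comparisons at the 2 stages share no library. The share of all tested genes with the same joint or single-stage calls is not given, so these numbers of genes have no background beside them.

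Among the MMPs, *mmp2* encodes gelatinase A, which cuts denatured collagen and basement membrane. Its levels at 48 hpf were 139, 133 and 101 CPM in GFP+ and 74.04, 41.2 and 30.9 CPM in GFP-. At 72 hpf they were 335, 404 and 372 against 65.5, 163 and 146 CPM. Every GFP+ library was above every GFP- library of its stage, with a log2FC of 1.35 (SE 0.39, padj = 0.019, 0.084 without GFP- replicate 3) and 1.57 (SE 0.39, padj = 0.014, 0.051 without GFP+ replicate 2). Without replicate 1 of GFP- at 72 hpf the latter was 1.28 (padj = 0.015).

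*mmp9*, the other gelatinase and a gene that leukocytes express strongly, had 34.8, 20.5 and 19.1 CPM in GFP+ and 5.63, 5.04 and 3.09 CPM in GFP- at 48 hpf. At 72 hpf the levels were 26.3, 14.6 and 17.4 against 17.02, 26.7 and 27.1 CPM. The fractions were apart at 48 hpf, with a log2FC of 2.43 (SE 0.37, padj = 0.00051), and overlapped at 72 hpf, with -0.28 (SE 0.35, padj = 0.61). The 5 macrophage and neutrophil genes summed to 49.2 to 94.7 CPM in GFP+ and 15.4 to 136 CPM in GFP- at 48 hpf, and to 1.19 to 15.1 against 58.0 to 411 CPM at 72 hpf. None of these 5 genes passed the test at 48 hpf, while 4 of them were lower in GFP+ at 72 hpf. Their part in the *mmp9* levels was not tested.

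The 2 stromelysin-3 genes, whose mammalian namesake is known from tissue remodelling, took different courses. *mmp11a* stood at 1.97, 5.21 and 2.16 CPM in GFP+ and 1.23, 1.34 and 1.02 CPM in GFP- at 48 hpf, and at 13.3, 9.86 and 8.42 against 0.593, 2.31 and 1.74 CPM at 72 hpf. The 72 hpf difference, a log2FC of 2.71 (SE 0.50, padj = 0.0024), held with each library left out, whereas the 48 hpf one, 1.37 (SE 0.48, padj = 0.048, 0.26 without GFP+ replicate 2), was lost with the replicate block (padj = 0.074). *mmp11b* had 34.5, 22.1 and 21.9 CPM in GFP+ and 9.84, 10.7 and 7.97 CPM in GFP- at 48 hpf, and then 2.23, 1.52 and 4.47 against 4.4, 13.7 and 7.86 CPM. It was thus higher in GFP+ first (1.46, SE 0.45, padj = 0.026, 0.11 without GFP+ replicate 1) and lower later (-1.69, SE 0.46, padj = 0.023, 0.10 without GFP+ replicate 2), although at 72 hpf the fractions overlapped by the highest GFP+ and the lowest GFP- library.

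*mmp20b*, named after the enamel protease enamelysin, was low in all libraries but those of GFP+ at 72 hpf. Its levels were 0.368, 0.266 and 0.318 CPM in GFP+ and 0.745, 0.575 and 0.889 CPM in GFP- at 48 hpf. At 72 hpf GFP+ cells had 11.7, 19.5 and 11.7 CPM and GFP- cells 1.86, 0.676 and 1.46 CPM. The log2FC at 72 hpf was 3.47 (SE 0.42, padj = 0.00019), and the one at 48 hpf, -1.20 (SE 0.43, padj = 0.053), had the opposite sign and did not pass. The 7 smooth muscle and bulbus genes, the elastin gene *elnb* among them, summed to 6632 to 7937 CPM in GFP+ at 72 hpf. In GFP- they summed to 1641 to 3146 CPM at that stage. At 48 hpf the sums were 123 to 153 CPM in GFP+ and 22.6 to 41.7 CPM in GFP-, and 4 of the 7, *acta2*, *tagln*, *fbln5* and *cnn1b*, were called higher in GFP+. Of the 7 genes, *fbln5* (4.21), *elnb* (4.09) and *mylka* (2.15) were called higher in GFP+ at 72 hpf, and *fbln5* made up most of the sum with 5258 against 284 CPM on average. At 72 hpf smooth muscle actin *acta2* had 1050 against 1323 CPM, *tagln* 164 against 521 CPM and *cnn1b* 4.67 against 5.08 CPM, none of them called at that stage. *myh11a* had 396 against 153 CPM, with a log2FC of 1.37 that was not called either (padj = 0.17). The part of these markers in the result was not tested.

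*MMP23B* and *mmp23bb* are namesakes of MMP23, an MMP held in the membrane until it is cut free. *MMP23B* had 5.89, 9.01 and 8.6 CPM in GFP+ and 1.28, 1.1 and 0.56 CPM in GFP- at 48 hpf, and 23.9, 19.8 and 13.1 against 9.57, 7.26 and 5.99 CPM at 72 hpf. The log2FC was 2.99 (SE 0.38, padj = 0.00022) and 1.32 (SE 0.35, padj = 0.022, 0.13 without GFP+ replicate 1), and the groups did not overlap at either stage. *mmp23bb* was higher at 48 hpf, with 7.17 against 3.46 CPM on average and a log2FC of 1.05 (SE 0.35, padj = 0.038, 0.13 without GFP+ replicate 1), and at 72 hpf the log2FC was -0.79 (SE 0.35, padj = 0.15). *mmp28*, or epilysin, was higher at 48 hpf (2.02, SE 0.69, padj = 0.042, 0.35 without GFP+ replicate 1), on levels of 4.31, 1.2 and 0.672 CPM in GFP+ and 0.488, 0.63 and 0.395 CPM in GFP-, and not with the replicate block (padj = 0.10).

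The collagenase gene *mmp13a* was near the lower end of detection. It had 12, 0 and 0 counts in GFP+ and 7, 8 and 0 counts in GFP- at 48 hpf, and 46, 2 and 0 against 11, 33 and 12 at 72 hpf, and no comparison called it. *mmp13b*, *mmp21* and *mmp30* passed in none of the 5 comparisons, with 48 hpf log2FC of 0.06, -2.09 and -0.22. *mmp19* was called at neither stage between the fractions.

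Membrane-type MMPs split in both directions. *mmp14a*, a namesake of the pro-MMP2 activator MMP14, had 85.4, 108 and 71.9 CPM in GFP+ and 25.5, 26.4 and 18.6 CPM in GFP- at 48 hpf, and 297, 336 and 359 against 37.3, 108 and 110.1 CPM at 72 hpf. The log2FC was 1.91 (SE 0.38, padj = 0.0023) and 1.96 (SE 0.38, padj = 0.0033), and each call held with any one library of its comparison left out. *MMP14* (ENSDARG00000008388) had 117, 172 and 124 against 53.3, 76.1 and 44.4 CPM at 48 hpf and 189, 295 and 312 against 45.9, 138 and 144 CPM at 72 hpf, with a log2FC of 1.25 (SE 0.41, padj = 0.036, 0.14 without GFP- replicate 3) and 1.28 (SE 0.41, padj = 0.049, 0.14 without GFP+ replicate 3). Both calls lay close to the threshold, although the fractions overlapped at neither stage.

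*mmp15b*, a second membrane-type activator, had 56.7, 55.3 and 58.1 CPM in GFP+ and 21.96, 29.3 and 13.4 CPM in GFP- at 48 hpf, and 18.8, 14.3 and 22.1 against 8.21, 12.3 and 9.8 CPM at 72 hpf. The fractions did not overlap at either stage, and the log2FC was 1.39 (SE 0.31, padj = 0.0047) and 0.86 (SE 0.31, padj = 0.077). *MMP15* (ENSDARG00000051962) had log2FC of 0.98 (SE 0.56, padj = 0.21) and 1.47 (SE 0.56, padj = 0.096), and passed at both stages with the replicate block (padj = 0.032 and 0.0085). *mmp17b*, of the membrane-type MMPs held by a lipid anchor, was lower in GFP+ at 72 hpf, with 5.21, 7.62 and 6.48 against 13.9, 10.4 and 22.2 CPM and a log2FC of -1.27 (SE 0.33, padj = 0.020, 0.070 without GFP- replicate 3). At 48 hpf it had 4.55, 4.17 and 5.41 against 3.73, 6.28 and 5.53 CPM and the fractions overlapped.

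*MMP16* and *mmp24*, whose mammalian namesakes are known from brain and nerve cells, were lower in GFP+ at 48 hpf. *MMP16* had 0.21, 0.399 and 0.283 CPM in GFP+ and 3.8, 4.49 and 4.58 CPM in GFP-, a log2FC of -3.83 (SE 0.63, padj = 0.00079). *mmp24* had 0.184, 0.399 and 0.637 against 5.55, 7.21 and 6.58 CPM, a log2FC of -3.998 (SE 0.63, padj = 0.00063). At 72 hpf both genes were at most 1.67 CPM in any library and neither passed, although *mmp24* did with the replicate block (padj = 0.042). *MMP17* and *mmp25b* passed in no comparison.

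The ADAMs without an active site, of which ADAM22 and ADAM23 bind the synaptic protein LGI1 in place of cutting, were also lower in GFP+ at 48 hpf. *adam22* had 10.52, 9.28 and 8.56 CPM in GFP+ and 130.2, 159 and 179 CPM in GFP- at 48 hpf, a 16.5-fold lower level in GFP+ (log2FC -4.04, SE 0.35, padj = 6.3e-05). At 72 hpf the levels were 4.69, 7.71 and 6.45 against 9.91, 7.32 and 16.3 CPM, the fractions overlapped and the log2FC was -0.83 (SE 0.32, padj = 0.094). *ADAM23* had 3.58, 2.53 and 1.49 against 23.9, 22.3 and 24.2 CPM at 48 hpf and 0.706, 0.921 and 0.791 against 3.39, 3.73 and 8.61 CPM at 72 hpf. It was lower in GFP+ at both stages, with -3.21 (SE 0.42, padj = 0.00024) and -2.70 (SE 0.42, padj = 0.00096), and *adam11* at 48 hpf, with -2.49 (SE 0.53, padj = 0.0036).

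Of the photoreceptor and neuron markers matched by symbol, the neuronal *elavl3* averaged 106 CPM in GFP+ and 1462 CPM in GFP- at 48 hpf, and 6.74 against 145 CPM at 72 hpf. The 4 genes summed to 86.8 to 119 CPM in GFP+ and 1286 to 1870 CPM in GFP- at 48 hpf, most of it from *elavl3*. Of the 4 genes, 3 were called lower in GFP+ at 48 hpf. Rhodopsin (*rho*) had no counts in GFP+ at that stage, and *gnat1* averaged 0.405 against 7.68 CPM. *gnat2*, with 1.86 against 1.36 CPM, was not called. At 72 hpf the 4 genes summed to 4.18 to 16.1 CPM in GFP+ and 242 to 718 CPM in GFP-, and all 4 were called lower in GFP+. Their part in the differences of *adam22*, *ADAM23*, *adam11*, *MMP16* and *mmp24* was not tested.

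Among the TIMPs, *timp2a* had 115, 97.4 and 94.3 CPM in GFP+ and 58.98, 49.4 and 43.1 CPM in GFP- at 48 hpf, and 351, 423 and 364 against 95.3, 206 and 223 CPM at 72 hpf. GFP+ libraries were above GFP- libraries at both stages. The log2FC was 1.02 (SE 0.31, padj = 0.028, 0.10 without GFP- replicate 3) and 1.12 (SE 0.31, padj = 0.027, 0.098 without GFP+ replicate 2). Without replicate 1 of GFP- at 72 hpf the latter was 0.84 (padj = 0.013). *timp2b* had 16.2, 15.1 and 25.6 against 6.83, 8.47 and 5.33 CPM at 48 hpf, which gave a log2FC of 1.46 (SE 0.41, padj = 0.018, 0.084 without GFP- replicate 3), and 107, 93.8 and 43.7 against 66.1, 49.4 and 26.4 CPM at 72 hpf, where the fractions overlapped (0.79, SE 0.40, padj = 0.21).

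The 3 *TIMP4* genes share a name and may share reads, so their counts are uncertain. ENSDARG00000111805 had 1.21 to 2.87 CPM in all libraries and passed in no comparison. ENSDARG00000100795 was lower in GFP+ at 48 hpf, with 4, 3 and 3 against 28, 12 and 26 counts and a padj of 0.042, 0.13 without GFP- replicate 3, which the replicate block moved to 0.076.

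Of the 14 ADAM proteases, 5 (35.7%, against 14.6% of all genes) were higher in GFP+ at 48 hpf and none was lower, and 1 (7.14%, against 6.22%) was higher at 72 hpf. *adam19a*, a namesake of ADAM19, the meltrin beta that mouse heart valves need, had 26.9, 26.6 and 23.6 CPM in GFP+ and 12.02, 12.1 and 7.74 CPM in GFP- at 48 hpf, a log2FC of 1.27 (SE 0.34, padj = 0.013, 0.061 without GFP- replicate 3). At 72 hpf it had 43.6, 30.6 and 49.6 against 18.1, 40.3 and 39.9 CPM, and the fractions overlapped. Its paralog *adam19b* had 52.5, 44.3 and 30.6 against 28.4, 25.1 and 30.021 CPM at 48 hpf and 17.96, 22.2 and 18.9 against 11.3, 19.6 and 22.7 CPM at 72 hpf, with log2FC of 0.61 (SE 0.30, padj = 0.15) and 0.13 (SE 0.30, padj = 0.79). *ADAM12* (ENSDARG00000116062), another meltrin, was higher at 48 hpf, with 4.78, 6.19 and 6.47 against 2.06, 2.27 and 2.3 CPM and 1.39 (SE 0.42, padj = 0.024, 0.080 without GFP- replicate 1). The second *ADAM12* gene (ENSDARG00000079068) passed in no comparison.

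*adam8a* and *adam8b* are namesakes of ADAM8, an ADAM of leukocytes. *adam8a* had 33.2, 39.3 and 63.2 CPM in GFP+ and 17.7, 17.4 and 7.67 CPM in GFP- at 48 hpf, a log2FC of 1.67 (SE 0.40, padj = 0.0071), and 58.8, 46.8 and 41.2 against 31.7, 57.7 and 28.4 CPM at 72 hpf. *adam8b* had 20.7, 16.9 and 31.3 against 10.019, 11.8 and 7.47 CPM at 48 hpf, which gave a log2FC of 1.23 (SE 0.39, padj = 0.031, 0.14 without GFP+ replicate 3), and 61.7, 74.8 and 45.8 against 25.4, 67.1 and 30.9 CPM at 72 hpf. Both overlapped at 72 hpf. Of the 5 leukocyte markers given for *mmp9*, none passed at 48 hpf and 4 were lower in GFP+ at 72 hpf. These 5 were the ones matched out of 9 listed, and their part in the *adam8a* and *adam8b* levels was not tested.

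*adam9b* was the ADAM protease with the largest fitted difference. It had 4.31, 3.06 and 5.06 CPM in GFP+ and 0, 0.329 and 0.165 CPM in GFP- at 48 hpf, and 6.68, 6.47 and 4.94 against 0.762, 1.33 and 0.885 CPM at 72 hpf. The log2FC of 4.64 (SE 0.70, padj = 0.00050) and 2.57 (SE 0.61, padj = 0.011) both held with each library of the comparison left out.

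The genes named after ADAM10 and ADAM17, sheddases known for cutting Notch and growth factors, did not pass between the fractions. *adam10a* had 262, 279 and 247 CPM in GFP+ and 186, 246 and 141 CPM in GFP- at 48 hpf, and 221, 295 and 316 against 120.2, 357 and 293 CPM at 72 hpf, with log2FC of 0.46 (SE 0.37, padj = 0.38) and 0.11 (SE 0.37, padj = 0.86). *adam10b* had 30.4, 46.8 and 29.9 against 79.7, 74.6 and 72.1 CPM and then 37.2, 20.1 and 27.4 against 5.5, 24.7 and 23.5 CPM, with -1.08 (SE 0.45, padj = 0.091) and 0.65 (SE 0.45, padj = 0.34). At 48 hpf all GFP- libraries of *adam10b* were above all GFP+ libraries, and the difference was called without replicate 1 of GFP- at 72 hpf (padj = 0.0045).

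Of the 2 *ADAM17* genes, ENSDARG00000043213 had 60.3, 66.5 and 36.2 CPM in GFP+ and 47.2, 60.3 and 51.8 CPM in GFP- at 48 hpf, and 53.8, 113 and 95.5 against 27.3, 76.2 and 67.9 CPM at 72 hpf, with overlap at both stages. ENSDARG00000093093 had 12.1, 18.8 and 12.3 against 5.39, 12.9 and 3.23 CPM at 48 hpf and 13.9, 19.8 and 18.1 against 3.22, 7.8 and 10.039 CPM at 72 hpf. Its log2FC of 1.01 (SE 0.49, padj = 0.15) and 1.28 (SE 0.49, padj = 0.097) passed only with the replicate block (padj = 0.027 and 0.022). *ADAM9* (ENSDARG00000010070), *adam15* and *adam28* had 72 hpf log2FC of 0.66, -0.70 and 1.13 and passed in none of the comparisons, except that *adam28* did at 72 hpf with the block (padj = 0.048).

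Among the ADAMTS proteoglycanases, which cut versican and aggrecan, *adamts15a* was higher in GFP+ at both stages. Its levels were 25.9, 29.5 and 30.036 against 10.3, 9.92 and 3.82 CPM at 48 hpf and 74.8, 85.4 and 80.4 against 12.9, 33.7 and 32.5 CPM at 72 hpf, with no overlap and log2FC of 1.83 (SE 0.41, padj = 0.0050) and 1.60 (SE 0.40, padj = 0.016, 0.053 without GFP+ replicate 2). *adamts9*, whose namesake cuts versican in the mouse heart, had 21.1, 20.1 and 21.3 against 15.1, 20.3 and 11.9 CPM at 48 hpf and 29.6, 43.4 and 38.04 against 18.97, 20.4 and 23.2 CPM at 72 hpf. Its 72 hpf log2FC of 0.83 (SE 0.26, padj = 0.046, 0.17 without GFP+ replicate 2) was among the weakest calls, and the block (padj = 0.052) lost it too.

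*adamts5*, another versican protease, went the other way at 72 hpf. It had 2.44, 6.41 and 1.84 against 2.52, 5.86 and 0.988 CPM at 48 hpf, where replicate 2 was high in both fractions, and 0.416, 0.326 and 0.672 against 2.2, 2.57 and 2.52 CPM at 72 hpf, which gave a log2FC of -2.40 (SE 0.65, padj = 0.023, 0.10 without GFP+ replicate 2). *adamts1* had 44.7, 54.2 and 43.8 against 19.3, 20.9 and 12.6 CPM at 48 hpf, with no overlap but a log2FC of 1.43 (SE 0.56, padj = 0.073). At 72 hpf it had 33.6, 23.3 and 47.5 against 6.01, 47.5 and 45.4 CPM, where replicate 1 of GFP- was the lowest library. The log2FC was 0.07 (SE 0.55, padj = 0.94), and -0.40 without that library.

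*ADAMTS8* (ENSDARG00000007709) was higher in GFP+ at 48 hpf (1.61, SE 0.49, padj = 0.026, 0.11 without GFP- replicate 3). *adamts15b* (ENSDARG00000033544) was called at neither stage, with 0.82 and 0.32. ENSDARG00000058252, which the study's tables call *adamts15b* and the gene name table *ADAMTS8*, had 2, 1 and 13 counts in GFP+ and 0, 0 and 0 in GFP- at 48 hpf. It was called higher there (padj = 0.031, 0.12 without GFP+ replicate 3), on counts of which 13 came from 1 library, and no fold is given. At 72 hpf it had 85, 94 and 16 against 3, 11 and 18 counts.

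The procollagen N-proteinases, which trim fibrillar procollagens, showed no call between the fractions in any of the 4 genes at either stage. Of all genes, 14.6% were called higher and 14.4% lower at 48 hpf, and 6.22% and 10.8% at 72 hpf. With only 4 genes, the lack of a call is therefore no result about this role. Without replicate 1 of GFP- at 72 hpf, *adamts3* was called higher at 48 hpf. *adamts2* had 2.55, 1.25 and 0.601 against 0.668, 0.849 and 1.48 CPM at 48 hpf and 10.4, 10.996 and 8.66 against 2.62, 9.13 and 4.46 CPM at 72 hpf. The log2FC of *adamts2*, *adamts2b*, *adamts3* and *adamts14* were 0.57, -0.08, 1.01 and 0.32 at 48 hpf and 0.88, -1.34, 0.59 and -0.002 at 72 hpf.

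Of the other 8 ADAMTS genes, 3 (37.5%) were higher in GFP+ at each stage, against 14.6% of all genes at 48 hpf and 6.22% at 72 hpf. *adamts17*, known for its part in microfibrils, was higher at both, with 1.81, 3.19 and 2.05 against 0.617, 1.07 and 0.988 CPM and 9.21, 7.48 and 11.98 against 1.1, 1.74 and 1.87 CPM and log2FC of 1.40 (SE 0.37, padj = 0.013, 0.061 without GFP- replicate 1) and 2.58 (SE 0.38, padj = 0.00061). *adamts13*, whose namesake cuts von Willebrand factor and is made in the liver, was higher at 48 hpf, with 9.15, 2.53 and 4.85 against 0, 0.685 and 0.0329 CPM (4.49, SE 1.02, padj = 0.0055). At 72 hpf its levels of 6.61, 4.7 and 12.6 against 1.69, 3.97 and 6.47 CPM overlapped. The 9 liver markers were apart at 48 hpf, as given above, and at 72 hpf summed to 1180 to 1781 CPM in GFP+ and 1110 to 1597 CPM in GFP-, and their part was not tested.

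*adamts7* and *adamts12*, a pair that cuts cartilage oligomeric matrix protein and is known in vascular smooth muscle and cartilage, were called at 72 hpf alone. *adamts7* had 15.6, 15.2 and 11.2 against 7.78, 12.3 and 5.5 CPM at 48 hpf and 18.6, 13.1 and 20.1 against 2.12, 4.47 and 6.16 CPM at 72 hpf, which gave a log2FC of 2.00 (SE 0.41, padj = 0.0046). *adamts12* had 6.34, 4.84 and 3.4 against 5.01, 4.82 and 7.31 CPM and then 13.3, 15.6 and 12.4 against 5.25, 6.23 and 6.6 CPM, a log2FC of 1.19 (SE 0.30, padj = 0.016, 0.065 without GFP+ replicate 2). *adamts16* was high only in GFP+ at 48 hpf, with 5.47, 5.08 and 7.71 CPM, beside 1.31, 0.658 and 0.428 CPM in GFP-, and at most 0.715 CPM in any library at 72 hpf. Its log2FC was 2.91 (SE 0.50, padj = 0.00099) at 48 hpf and -1.17 (SE 0.54, padj = 0.17) at 72 hpf.

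*adamts6*, *adamts10* and *adamts18* were not called in the comparisons, though with the replicate block *adamts10* was higher at 48 hpf (padj = 0.0038), *adamts6* higher at 72 hpf (0.021) and *adamts18* lower at both stages (0.0067 and 0.030).

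Among the ADAMTSL genes, *adamtsl5* had 48.6, 45.8 and 40.6 against 10.019, 21.6 and 11.9 CPM at 48 hpf and 18.1, 29.3 and 24.99 against 2.62, 9.48 and 11.3 CPM at 72 hpf, with no overlap and log2FC of 1.63 (SE 0.45, padj = 0.017, 0.075 without GFP- replicate 1) and 1.61 (SE 0.46, padj = 0.028, 0.098 without GFP+ replicate 2). *adamtsl7* was higher at 48 hpf (3.49, SE 0.65, padj = 0.0017), with 11.96, 4.76 and 6.19 against 1.16, 0.438 and 0.428 CPM, and at 72 hpf only with the block (1.49, block padj = 0.047). *ADAMTSL2* and *adamtsl3*, with 72 hpf log2FC of 0.18 and 1.30, passed nowhere.

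*htra1a* encodes a serine protease that cuts fibronectin and other matrix proteins. Its levels at 48 hpf were 3.81, 3.14 and 3.33 CPM in GFP+ and 0.822, 0.685 and 0.461 CPM in GFP-. At 72 hpf they were 580.1, 633 and 349.5 CPM in GFP+ and 33.4, 34.3 and 17.7 CPM in GFP-. Every library of one group was apart from every library of the other groups. The log2FC between the fractions was 2.37 (SE 0.37, padj = 0.00057) at 48 hpf, a 5.17-fold difference, and 4.20 (SE 0.37, padj = 4.1e-05) at 72 hpf, an 18.3-fold difference, and both held with each library left out. Of the markers given for *mmp20b*, *fbln5*, *elnb* and *mylka* were called higher in GFP+ at 72 hpf and *acta2*, *tagln*, *cnn1b* and *myh11a* were not called at that stage. At 48 hpf *acta2*, *tagln*, *fbln5* and *cnn1b* of these markers were called higher in GFP+. Their part was not tested here either.

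**Figure D2:**
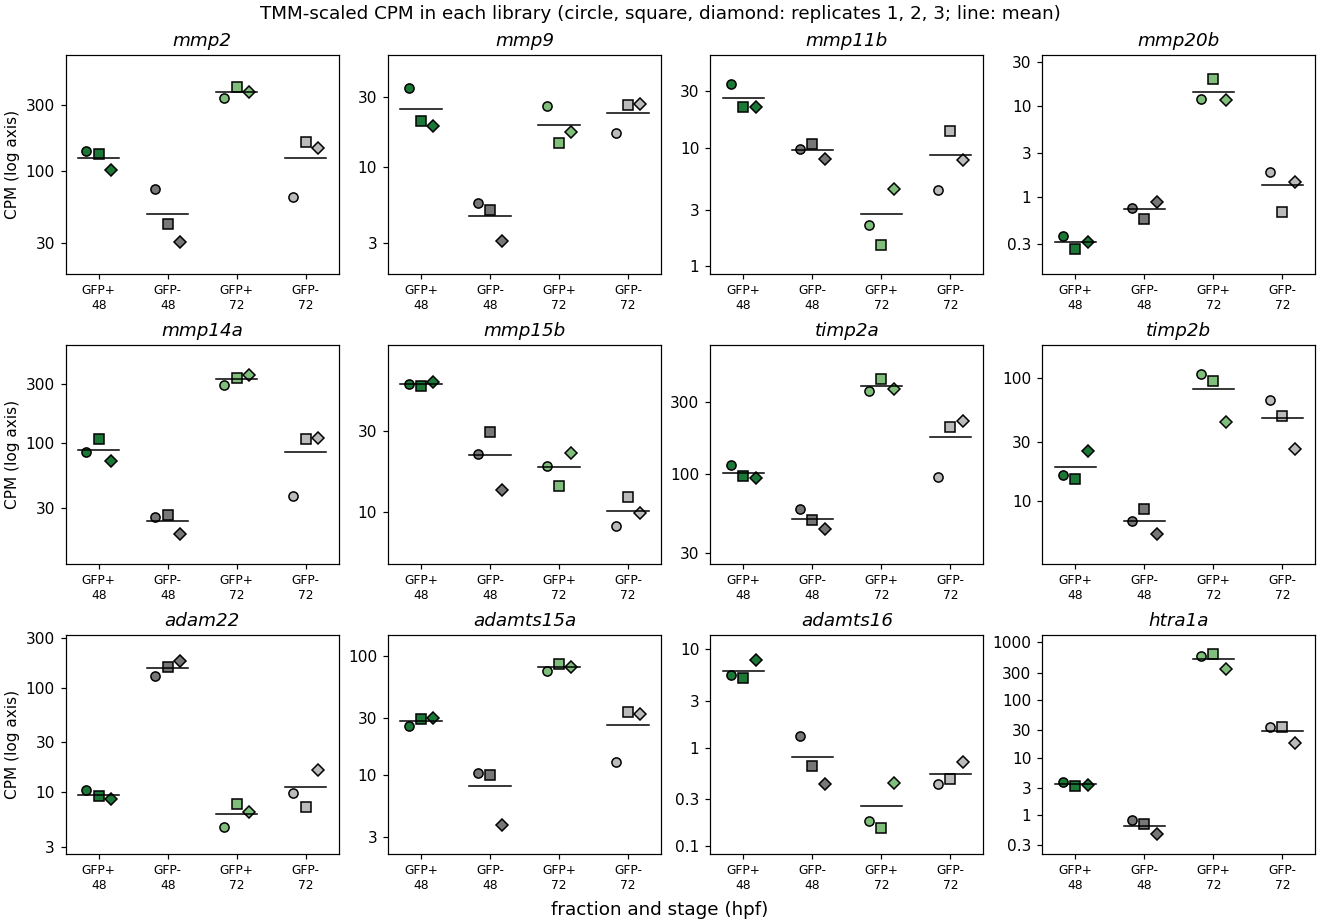
CPM of 12 genes in each of the 12 libraries (log axis) by fraction and stage, with circles, squares and diamonds for replicates 1, 2 and 3 and a line at the mean of 3. *htra1a* and *mmp20b* stand highest in GFP+ at 72 hpf, *adamts16* and *mmp11b* in GFP+ at 48 hpf and *adam22* in GFP- at 48 hpf.

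Leaving out one library at a time, 16 of the 32 calls at 48 hpf and 8 of the 19 at 72 hpf held in all 6 fits without a library of the comparison. At 48 hpf these were *MMP23B*, *mmp9*, *mmp14a*, *mmp15b*, *adam8a*, *adam9b*, *adamts13*, *adamts15a*, *adamts16*, *adamtsl7* and *htra1a*, which were higher, and *MMP16*, *mmp24*, *adam11*, *adam22* and *ADAM23*, which were lower. At 72 hpf they were *mmp11a*, *mmp14a*, *mmp20b*, *adam9b*, *adamts7*, *adamts17* and *htra1a*, which were higher, and *ADAM23*, which was lower. The others lost their call in at least 1 fit, with padj of 0.052 to 0.35 at 48 hpf and 0.050 to 0.17 at 72 hpf. The number higher at 48 hpf fell from 26 to 12 without replicate 3 and to 13 without replicate 1 of GFP-, and to 17 without replicate 3 of GFP+. At 72 hpf it fell from 15 to 7 without replicate 2 of GFP+, and the number lower from 4 to 2 in that fit and to 1 without replicate 1 of GFP+.

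Between the stages, 17 of the 67 genes (25.4%) rose from 48 to 72 hpf in GFP+ cells, against 11.4% of all genes, and 7 (10.4%) fell, against 11.5%. In GFP- cells 18 (26.9%) rose, against 26.1% of all genes, and 7 (10.4%) fell, against 22.3%. The median log2FC over the 67 genes was 0.26 in GFP+ and 0.42 in GFP-, beside -0.02 and 0.14 over all genes. When libraries were scaled by their total counts without TMM, the median of all genes moved to -0.32 in GFP+ and -0.10 in GFP-, and 7 genes of this set rose and 7 fell in GFP+. Without replicate 1 of GFP- at 72 hpf, 23 rose and 6 fell in GFP-.

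Rises in both fractions were called in 11 genes, *MMP23B*, *mmp2*, *mmp14a*, *timp2a*, *timp2b*, *adam8b*, *adamts2*, *adamts15a*, both genes called *adamts15b* and *htra1a*. The share of all tested genes called in both fractions or in a single one is not given, for rises or for falls. In *htra1a* the log2FC was 7.25 (SE 0.43, padj = 3.3e-06) in GFP+ and 5.42 (SE 0.41, padj = 1.3e-05) in GFP-. Of MMP2 and the genes tied to its activation, log2FC in GFP+ and GFP- were 1.57 (SE 0.39, padj = 0.012, 0.056 without 48 hpf replicate 3) and 1.35 (SE 0.39, padj = 0.012, 0.050 without 48 hpf replicate 2) for *mmp2*, 1.90 and 1.86 for *mmp14a* and 1.89 and 1.79 for *timp2a*. *MMP14* was called in neither fraction (0.95 and 0.92) but in both without replicate 1 of GFP- at 72 hpf (padj = 0.013 and 0.0034), and *mmp15b* fell in both (-1.63 and -1.09). For *timp2b* the values were 2.10 (SE 0.42, padj = 0.0038) and 2.78 (SE 0.43, padj = 0.00044), and for *adamts2*, which trims procollagen, 2.76 (SE 0.56, padj = 0.0043) and 2.46 (SE 0.56, padj = 0.0039). In GFP-, *mmp2* overlapped between the stages through replicate 1 at 72 hpf, and without that library its log2FC was 1.63 (padj = 0.0013).

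In GFP+ alone, *mmp20b* (5.48, SE 0.47, padj = 2.9e-05), *adamts17* (2.02, SE 0.36, padj = 0.0023), *adamts12* (1.5005, SE 0.30, padj = 0.0042), *mmp11a* (1.75, SE 0.47, padj = 0.019, 0.081 without 72 hpf replicate 1) and *adamts9* (0.83, SE 0.26, padj = 0.038, 0.14 without 72 hpf replicate 2) were called higher at 72 hpf. *mmp19* was too (padj = 0.047, 0.13 without 48 hpf replicate 3), on 3, 2 and 1 counts at 48 hpf and 30, 19 and 10 counts at 72 hpf, a call that the block (padj = 0.052) lost too. In GFP- alone, *mmp9* (2.36, SE 0.37, padj = 0.00047), *mmp17b* (1.58, SE 0.34, padj = 0.0026), *mmp23bb* (1.27), *adam8a* (1.46), *adam9b* (2.61), *adam19a* (1.63) and *adamts13* (4.06) were called higher. Without replicate 1 of GFP- at 72 hpf, *adamts17* was called in GFP- too and *adam19a* in GFP+ too. For rises and falls alike, a call in a single fraction does not show that the fractions differ. The interaction test of that difference is given further on.

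Falls in both fractions were called in *mmp15b* (-1.63 in GFP+ and -1.09 in GFP-), *ADAM23* (-1.65 and -2.15) and *adamts2b* (-2.57 and -1.30). The GFP- call of *mmp15b* was lost without 48 hpf replicate 2 (padj = 0.061) and the GFP+ call of *ADAM23* without 48 hpf replicate 1 (padj = 0.060). The GFP- call of *adamts2b* was lost with the block (padj = 0.053) and in all 6 fits without a library, with padj of at most 0.11 without 48 hpf replicate 2. In GFP+ alone *adamts16* (-4.64, SE 0.55, padj = 0.00023), *mmp11b* (-3.27, SE 0.48, padj = 0.00076), *adamts5* (-2.95, SE 0.66, padj = 0.0072) and *adam19b* (-1.11, SE 0.30, padj = 0.019, 0.081 without 48 hpf replicate 1) fell. In GFP- alone *adam22* (-3.80, SE 0.35, padj = 3.2e-05), *mmp24* (-3.13, SE 0.60, padj = 0.0015), *MMP16* (-2.41, SE 0.58, padj = 0.0053) and *adam10b* (-2.07, SE 0.46, padj = 0.0034) fell. Without replicate 1 of GFP- at 72 hpf, which was the lowest for *adam10b*, its log2FC was -1.67 (padj = 0.00086). With the block *adam11* was also called lower in GFP- at 72 hpf (-1.24, block padj = 0.017). Of the photoreceptor and neuron markers, neuronal *elavl3* averaged 1462 CPM in GFP- at 48 hpf and 145 CPM at 72 hpf. The photoreceptor genes went the other way in GFP-, *rho* from 15.3 to 171 CPM, *gnat1* from 7.68 to 31.7 CPM and *gnat2* from 1.36 to 72.4 CPM. The part of these markers in the falls in GFP- was not tested.

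**Figure D3:**
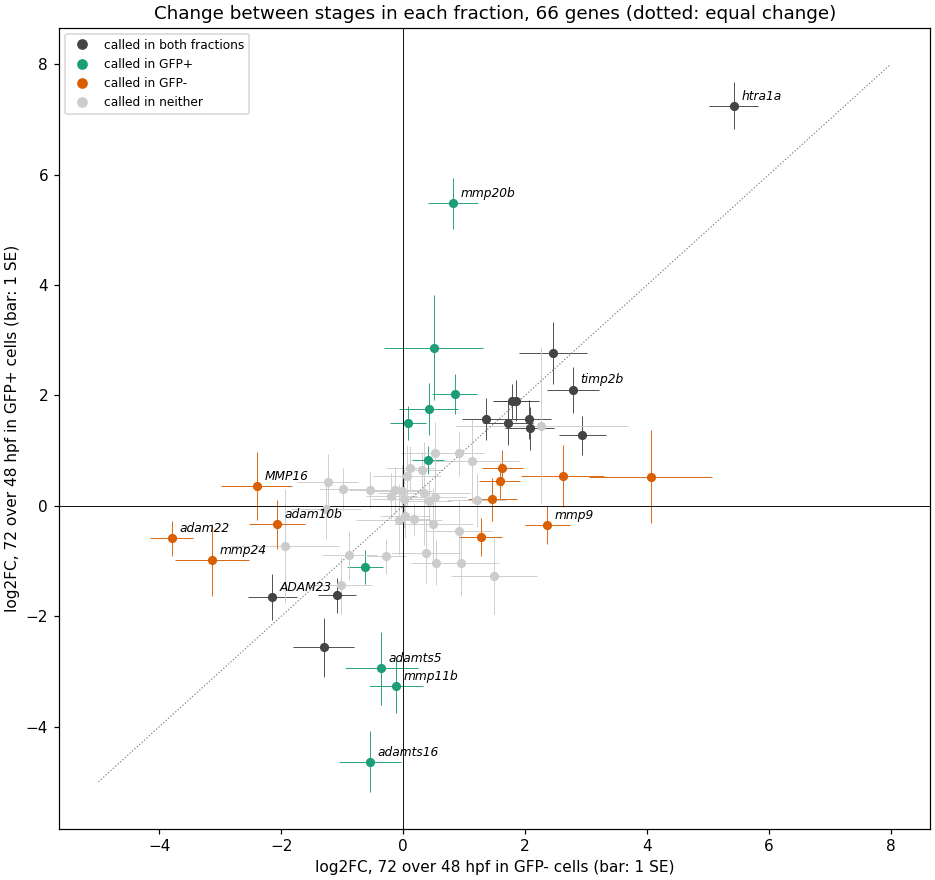
Log2FC from 48 to 72 hpf in GFP- cells (x axis) and GFP+ cells (y axis) for 66 genes with bars of 1 SE, coloured by the fractions in which padj is below 0.05, with a dotted line of equal change. *mmp20b* lies above the line at 5.48 in GFP+, and *adamts16* at -4.64 below it, while *adam22* fell by 3.80 in GFP-. *adamts15b* (ENSDARG00000058252), at 0 counts in GFP- at 48 hpf, is left out.

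Of the stage calls, 14 of 24 in GFP+ and 22 of 25 in GFP- held in all 6 fits without a library of the comparison. The 10 calls that did not hold in GFP+ were those of *MMP23B*, *mmp2*, *mmp11a*, *mmp19*, *adam8b*, *adam19b*, *ADAM23*, *adamts9*, *adamts15a* and *adamts15b* (ENSDARG00000058252). In GFP- they were those of *mmp2* and *mmp15b*, each lost without replicate 2 at 48 hpf, and of *adamts2b*. The padj of the lost calls were 0.050 to 0.14 in GFP+ and 0.050 to 0.11 in GFP-. The number that rose in GFP+ was 10 or 11 in the fits without replicate 1 or 3 at 48 hpf or without replicate 1 or 2 at 72 hpf.

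Whether the difference between the fractions itself changed with stage was tested as an interaction. It was higher at 72 hpf in 3 of the 67 genes (4.48%), against 2.47% of all genes, and lower in 4 (5.97%), against 5.7%. The genes with a shift toward GFP+ were *mmp20b* (4.67, SE 0.60, padj = 0.0019), *adam22* (3.21, SE 0.45, padj = 0.0028) and *htra1a* (1.83, SE 0.49, padj = 0.038, 0.11 without GFP- 48 hpf replicate 1). Those with a shift toward GFP- were *adamts16* (-4.09, SE 0.73, padj = 0.0071), *mmp11b* (-3.15, SE 0.64, padj = 0.012), *mmp9* (-2.71, SE 0.50, padj = 0.0083) and *mmp23bb* (-1.84, SE 0.49, padj = 0.038, 0.098 without GFP- 48 hpf replicate 1). Only 5 of these 7 kept their call in all 12 fits without one library, and *htra1a* and *mmp23bb* each lost it in 8 of them, with the highest padj given above. Without replicate 1 of GFP- at 72 hpf, 5 genes were higher and 6 lower, and without replicate 3 of that group 6 and 5. With all libraries the median over the 67 genes was -0.21, beside -0.10 over all genes. In the fit without replicate 1 the median was -0.52 beside -0.01 over all genes, and all 7 were still called. Without replicate 2 of that group it was -0.03 beside -0.11, and without replicate 3 it was -0.02 beside -0.03. With the replicate block *MMP23B* (-1.66, block padj = 0.042) and *MMP16* (2.76, block padj = 0.049) were called as well. For *mmp2*, *mmp14a* and *timp2a* the interaction was 0.22 (SE 0.54, padj = 0.82), 0.05 (SE 0.52, padj = 0.97) and 0.10 (SE 0.44, padj = 0.91).

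**Figure D4:**
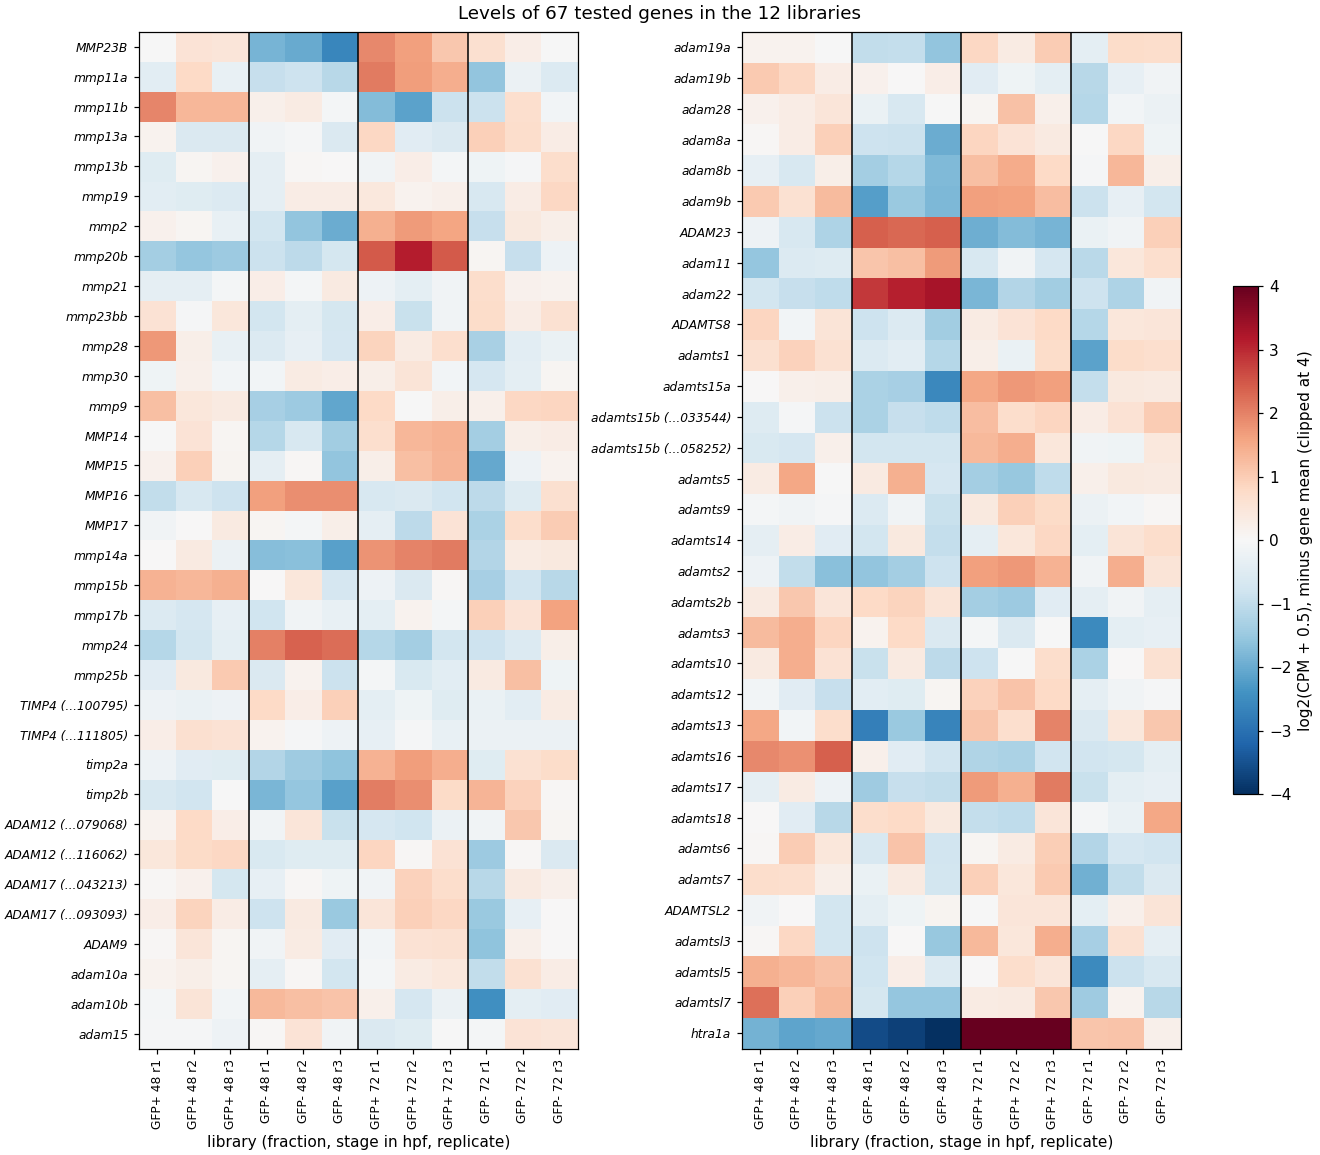
Levels of the 67 tested genes in the 12 libraries, as log2(CPM + 0.5) minus the mean of each gene over the libraries, ordered by role, with black lines between the groups. *adam22*, *ADAM23*, *mmp24* and *MMP16* are red in the 3 GFP- libraries at 48 hpf, and replicate 1 of GFP- at 72 hpf is the lowest of its group for 52 genes.

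A list of 32 genes drawn up as activators and inhibitors of matrix proteases was also described, of which 21 were matched by symbol and tested. Not all of them act on proteases of this set, *serpinh1b* and *pcolcea* below among them. At 48 hpf 10 of them were higher in GFP+ and none lower, where 14.6% and 14.4% of all genes were. At 72 hpf 7 were higher and 1 lower, where 6.22% and 10.8% of all genes were. The median log2FC was 1.14 and 0.76, beside 0.03 and -0.02 over all genes. *serpinh1b*, a collagen chaperone, was higher at both stages (log2FC 1.60, SE 0.30, and 1.26, SE 0.30), as was *pcolcea*, an enhancer of procollagen cutting (2.09, SE 0.42, and 2.80, SE 0.43). *plg*, the liver-made precursor of plasmin, was called higher at 48 hpf alone (3.78), as were 8 of the 9 liver markers, whose part was not tested. *plaua*, the urokinase that activates the product of *plg*, was lower at 72 hpf (-3.08).

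Of 36 listed substrates, 29 were matched and tested, and 5 were higher and 3 lower in GFP+ at 48 hpf, beside 14.6% and 14.4% of all genes, which is near the share of the list. At 72 hpf 8 were higher and 3 lower, beside 6.22% and 10.8%. *fn1b*, a fibronectin, was higher at both stages (2.26 and 1.92). *elnb* (4.09) and *acana*, the aggrecan gene (3.80), were higher at 72 hpf. *nrg1*, a growth factor that ADAMs release, was lower at 72 hpf (-2.30), and the Notch receptor *notch3* was lower at 48 hpf (-1.36) and higher at 72 hpf (2.03).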

How the data were processed

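RNA from 12 sorted pools of *sqet31Et* heart cells was reverse transcribed into full-length cDNA (SMART-Seq v4) and made into libraries that do not mark strand (Nextera XT). The deposited values are raw counts per Ensembl gene, 1 table for each library. The authors' processing notes name bcl2fastq 2.16.0.10, cutadapt 1.17, Salmon 0.9.1, R 3.5.2 and DESeq2 1.29.13, and the GRCz11 assembly. Without strand, reads of a gene and an overlapping antisense gene cannot be told apart. Reads of near-identical copies cannot be told apart with or without strand. Whether the genes that share a name, those of *TIMP4*, *ADAM12*, *ADAM17* and *adamts15b*, are such copies was not examined, so their counts are uncertain.

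Counts were fitted in edgeR 4.0.16 (R 4.3.3) by the quasi-likelihood test with TMM scaling, in 1 model of the 4 groups, after filterByExpr left 23222 of 27191 genes. P-values were adjusted by Benjamini-Hochberg over all tested genes. CPM used the TMM-scaled library sizes. The script was tested on simulated counts. Symbols came from the study's tables for 4122 genes and from a gene name table for 21485, and 1584 had none. The members and lists were chosen with earlier results of these data known. Genes are given with the values of every library where they were called and had a group mean of at least 10 CPM, or were on a short list of matrix protease genes, of which *mmp14b*, *adam17a* and *adam17b* were not matched under those symbols. Other genes with such values were chosen after their values were seen.

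Alternatives were DESeq2 size factors, total counts without TMM, the Wald test of DESeq2 1.42.0, all genes unfiltered, only genes with 10 counts or more in each of the 3 libraries of some group, the 2 groups of a comparison alone, a replicate block, and each library left out. In the fraction tests the block had a term for each replicate of each stage. In the stage and interaction tests it had a term for each replicate number across both stages. The study's methods describe one replicate as both fractions at both stages, and the block takes same-numbered libraries as belonging together. Deviations from the group means of same-numbered libraries correlated across genes at 0.13, 0.40 and 0.22 between the fractions at 48 hpf, at 0.42, -0.07 and 0.49 at 72 hpf, at 0.00, -0.01 and -0.20 between the stages in GFP+ and at 0.14, 0.38 and -0.01 in GFP-. Different-numbered libraries gave -0.32 to 0.15 between the fractions at 48 hpf and -0.48 to 0.22 at 72 hpf. Between the stages they gave -0.16 to 0.18 in GFP+ and -0.35 to 0.19 in GFP-. Whether the numbers pair libraries across the stages was not settled. The study describes the replicates both as biological and as technical, so p-values measure the spread between these libraries, which may be technical.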

Additional observations from a re-analysis of the deposited data

Results flagged for a closer look

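The difference between the fractions changed from 48 to 72 hpf by the interaction test itself (edgeR, adjusted over all tested genes) in 7 of 67 genes, 3 higher (4.48%, against 2.47% of all genes) and 4 lower (5.97%, against 5.7%). The change in log2FC was 4.67 for *mmp20b*, 3.21 for *adam22* and 1.83 for *htra1a*, toward GFP+. It was -4.09 for *adamts16*, -3.15 for *mmp11b*, -2.71 for *mmp9* and -1.84 for *mmp23bb*, toward GFP-. The padj were 0.0019, 0.0028 and 0.038 for the first 3 genes and 0.0071, 0.012, 0.0083 and 0.038 for the other 4. The calls of *htra1a* and *mmp23bb* were each lost in 8 of the 12 fits without one library, with padj of at most 0.11 and 0.098 without replicate 1 of GFP- at 48 hpf. For *htra1a* GFP+ was higher at both stages, for *adam22* the GFP- level at 48 hpf stood above the other 3 groups, and for *mmp9* the GFP- level at 48 hpf stood below them.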

How the results depend on the processing

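No called result changed sign under any alternative. The numbers of calls below are of this set alone, without the share of all genes called under the same alternative. With total counts in place of TMM, 14 genes were higher at 48 hpf, 8 higher and 2 lower at 72 hpf, and 7 rose in GFP+ between the stages. With the DESeq2 test 8 were lower at 72 hpf, and the interaction was higher in 6 and lower in 9. With only the 2 groups compared, 7 were higher and 2 lower at 72 hpf and 11 fell in GFP+ between the stages. Leaving out one library gave 12 to 30 genes higher and 5 to 9 lower at 48 hpf, 7 to 15 higher and 1 to 6 lower at 72 hpf, 10 to 19 that rose and 5 to 10 that fell in GFP+, 18 to 23 and 5 to 10 in GFP-, and an interaction higher in 2 to 6 and lower in 3 to 6. The replicate block gave 27 higher and 6 lower at 48 hpf, 19 and 6 at 72 hpf, 16 rises and 7 falls in GFP+, 18 and 7 in GFP-, and an interaction higher in 4 and lower in 5. It changed no other call than those given above. Calls on few counts, such as those of *mmp19* and of *adamts15b* (ENSDARG00000058252), rest on at most 30 and 94 counts in any library of the groups compared.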
